A study of Mus musculus with 36 samples.

Results

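The Dlk1-Dio3 locus on mouse chromosome 12 was followed through reprogramming in 36 RNA libraries, using 6 of the 21442 genes in the count table. The members were Dlk1, Rtl1 and Dio3, which code for proteins, and Meg3, Rian and Mirg, which are non-coding RNAs. They were chosen by name, and the locus had been picked because earlier results of these same data showed that single pluripotent clones differed in it. The levels in iPSCs and ESCs are therefore given as a description, with no test. The working description of the locus spoke of silencing in single iPSC and ESC clones. In the data, Meg3, Rian and Mirg were nearly absent in 1 KO ESC clone and in none of the 6 iPSC clones.

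Imprinted genes are transcribed mainly from the allele inherited from one parent. At the Dlk1-Dio3 locus the coding genes are read from the paternal chromosome and the non-coding RNAs from the maternal one, under the control of a differentially methylated region between Dlk1 and Meg3. The locus is known in stem cell biology because mouse iPSC and ESC lines can lose the maternal non-coding RNAs when this region gains methylation. Neither DNA methylation nor the parental allele was measured here.

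The study used Cas9 TNG MKOS cells of the 129 strain, which carry a Nanog-GFP-ires-Puro reporter, a Cas9 transgene in Rosa26 and a doxycycline-inducible cassette with Myc, Klf4, Oct4, Sox2 and mOrange in the Sp3 locus. The 12 groups of 3 libraries were formed by 6 stages and 2 genotypes. Mouse embryonic fibroblasts (MEFs) came from chimeric E12.5 embryos, made by aggregating these ESCs with morulae collected from B6CBAF1 females, and were harvested 96 h after transduction with a control guide RNA (wild-type, WT) or a guide against the zinc finger gene Zfp266 (KO). No sort of the MEFs for transgenic cells is stated, so MEF libraries can hold host cells of another strain, whose share was not tested. Reprogramming cells were mixed with unmodified 129 MEFs, received 300 ng/ml doxycycline and 10 µg/ml vitamin C and were sorted for mOrange at days 3, 5 and 7 (D3, D5, D7). In MEFs and at D3, D5 and D7, a KO library was a population of edited cells rather than a clone. The iPSCs were Nanog-GFP+ clones picked at day 15 and kept in 1 µg/ml puromycin. The paper describes the KO ESCs as single-cell clones of the parental ESC line. It does not state that each KO ESC library was a separate clone, or the source of the WT ESCs. Here the KO libraries were read as 3 clones and the WT libraries as 3 samples of the parental line. On that reading, the spread in WT ESCs was a spread within a line, and the spread in KO ESCs a spread between clones.

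Total counts ranged from 19224103 to 39610939 per library. Levels are normalised counts, the reads of a gene divided by the size factor of the library. A gene with no read could have had up to 3, which equals 2.31 to 5.22 normalised counts, a limit that covers counting error only. Zfp266 RNA was not lower in KO cells from MEFs to D7 (3200 ± 114, SD, n = 3, in KO and 2949 ± 136 in WT MEFs), and in iPSCs it was 2019 ± 170 in KO and 2647 ± 151 in WT. RNA levels therefore did not check the genotype labels. Sums of 10 pluripotency markers were 118182 to 154535 in iPSCs and ESCs and 57.6 to 79.5 in MEFs, and sums of 10 fibroblast markers were 122.5 to 277.5 in iPSCs and ESCs and 401208 to 572638 in MEFs. Nothing in the labels said that replicates of a group came from separate cultures, and the clones of iPSCs and KO ESCs are known from the paper alone. The p-values therefore measure only the spread between these samples.

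The locus spanned 828275 bp from the start of Dlk1 to the end of Dio3, at chr12:109452823-110281097 in GRCm38. Dlk1 (ENSMUSG00000040856, chr12:109452823-109463336) and Dio3 (ENSMUSG00000075707, chr12:110279068-110281097) lay at its ends. Meg3 (ENSMUSG00000021268, chr12:109541001-109571726) began 77664 bp after the end of Dlk1. Rian (ENSMUSG00000097451, chr12:109603940-109661716) and Mirg (ENSMUSG00000097391, chr12:109729764-109749460) followed on the same strand. Rtl1 (ENSMUSG00000085925, chr12:109589193-109600330) was the member on the minus strand. The annotation held 118 genes in the span, among them 67 microRNA and 23 small nucleolar RNA genes, but only 13 of the 118 were in the count table and none of these was a microRNA gene. Exons of Rtl1 overlapped microRNA precursors on the opposite strand, and an exon of Meg3 shared 1228 bp with a lincRNA on the opposite strand. Whether the reads were counted by strand was not stated, so reads of such partners cannot be told apart here.

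The sequences shown for the non-coding RNAs are the regions around the first start of Meg3 and the start of Rian, since both RNAs were nearly absent from the same clone. They are shown from the plus strand of GRCm38.p6 as RefSeq gives them, 250 bases before to 50 bases after the start, with each CG pair in capitals because CG pairs are the sites of DNA methylation.
Meg3, chr12:109540746-109541045: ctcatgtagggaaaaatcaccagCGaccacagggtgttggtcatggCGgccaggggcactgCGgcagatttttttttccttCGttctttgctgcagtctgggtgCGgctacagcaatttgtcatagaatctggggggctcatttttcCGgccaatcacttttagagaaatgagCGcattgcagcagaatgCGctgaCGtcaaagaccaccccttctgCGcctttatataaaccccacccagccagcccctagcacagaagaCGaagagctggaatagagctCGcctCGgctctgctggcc
Rian, chr12:109603695-109603994: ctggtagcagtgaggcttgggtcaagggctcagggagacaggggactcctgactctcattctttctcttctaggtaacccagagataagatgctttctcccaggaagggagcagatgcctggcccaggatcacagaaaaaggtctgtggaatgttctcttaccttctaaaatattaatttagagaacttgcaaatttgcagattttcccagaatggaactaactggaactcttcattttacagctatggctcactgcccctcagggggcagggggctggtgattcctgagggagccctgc

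The Meg3 window held 13 CG pairs, more than 62.1% of the 32851 windows of that length, whose median was 7. The Rian window held 0. A cAMP response element, TGACGTCA, which reads the same on both strands, began at position 194 of the Meg3 window and was found in 1.79% of all windows. The Meg3 window also held CCAAT at position 151, found on either strand in 37.4% of all windows. It held TATAAA at position 226 and, on the opposite strand (TTTATA as printed), at position 222. TATAAA was found on either strand in 13.6% of all windows. None of these letters was in the Rian window, which says only that they are absent from these 300 bases. RefSeq gives a later start of Meg3 as well, whose window (chr12:109545148-109545447) held 1 CG pair and none of the 3 motifs. Mirg was also absent from that clone. Its RefSeq start lies inside the gene as annotated here, and the window there (chr12:109734731-109735030) held 10 CG pairs and CCAAT at position 67.

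The non-coding RNAs also host microRNAs, which were not measured in this library type. RefSeq gives mature sequences for 61 microRNA genes in the locus, of which 14 lay in Mirg, 3 in Rian, 2 in Meg3 and 1 in Rtl1 on the same strand, and 6 lay opposite to Rtl1. The following mature sequences show what the 3 transcripts carry and what lies opposite to Rtl1, with the seed (bases 2 to 8) in capitals.
miR-770-5p, in Meg3: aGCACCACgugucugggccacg
miR-127-3p, opposite to Rtl1: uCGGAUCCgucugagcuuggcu
miR-370-3p, in Rian: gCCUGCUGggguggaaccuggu
miR-453, in Mirg: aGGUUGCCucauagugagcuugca
miR-496a-5p, in Mirg: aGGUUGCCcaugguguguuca
miR-410-3p, in Mirg: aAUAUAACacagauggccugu
miR-453 and miR-496a-5p had the same seed, and the 113 mature names of the locus had 104 distinct seeds, of which 9 were shared.

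The members formed 2 sets by their levels in pluripotent cells. The coding genes ended low in iPSCs and ESCs, but their courses before that differed. In WT means Dlk1 fell from MEFs to D7, Dio3 dipped at D3 and then rose to D7, and Rtl1 rose to D7. The non-coding RNAs also dipped at D3, and were higher in WT iPSCs and WT ESCs than in WT MEFs. The plot of members by library shows these courses.

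**Figure D1:**
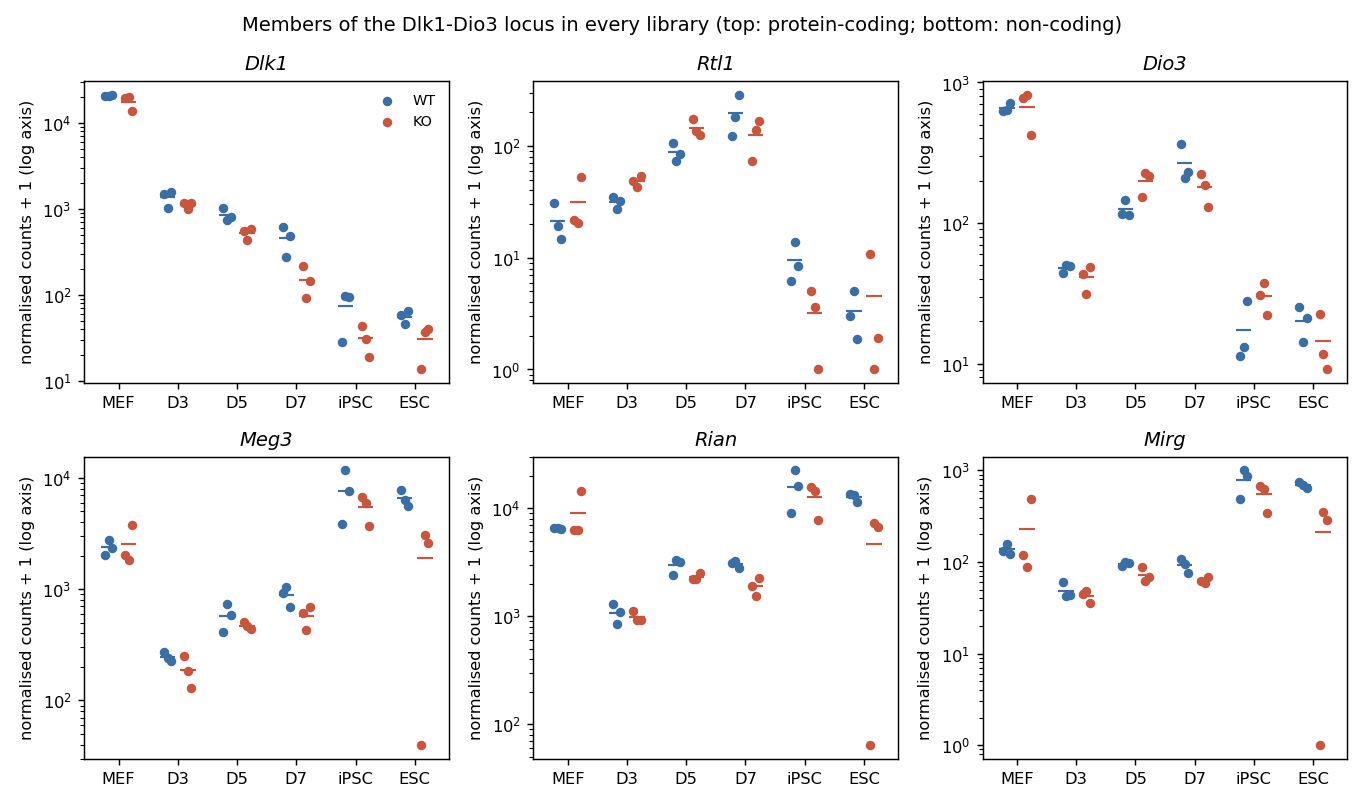
Normalised counts + 1 (log axis) of the 6 members in each of the 36 libraries, by stage. Points are libraries, short lines group means (n = 3), blue WT and red KO. Dlk1 goes from 20756 in WT MEFs to 55.1 in WT ESCs, and a single KO ESC library lies far below the rest for Meg3, Rian and Mirg.

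Dlk1 codes for a transmembrane protein with EGF-like repeats that is known as a preadipocyte marker. In WT cells it was 20299.5, 20708 and 21261 in the MEF libraries and 1487, 1016 and 1569 at D3, with no overlap. It fell between these stages (log2FC = -3.93 ± 0.34, SE, adjusted p = 1.16e-29, DESeq2 fit to all 36 libraries). Levels went on to 1013, 744 and 807 at D5 and to 609, 274 and 481 at D7. The step from D5 to D7 passed the FDR but not the fold threshold (log2FC = -0.91 ± 0.35, adjusted p = 0.038), and it passed both without D5 WT replicate 2 or without D7 WT replicate 1. In WT iPSC clones Dlk1 was 27.6, 96.4 and 92.8, and in WT ESCs it was 57.2, 44.5 and 63.4, so these groups overlapped.

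Dio3 codes for the deiodinase that inactivates thyroid hormone. It was 628, 639 and 710 in WT MEFs and 43.1, 49.0 and 48.5 in WT cells at D3 (log2FC = -3.82 ± 0.30, adjusted p = 3.86e-37). It then rose to 115.5, 145.5 and 112.4 at D5 (log2FC = 1.41 ± 0.30, adjusted p = 4.6e-05) and to 361, 209 and 229 at D7 (log2FC = 1.10 ± 0.28, adjusted p = 0.00108). Without D7 WT replicate 1, its highest library, the last step was 0.82 on the log2 scale and under the fold threshold. The rise during reprogramming was not kept in the pluripotent lines, where WT iPSC clones had 10.4, 12.1 and 26.9 and WT ESCs had 24.1, 13.2 and 19.98.

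Rtl1, a gene derived from a retrotransposon and needed in the placenta, was the lowest member in MEFs, with 29.6, 18.2 and 13.8 in WT libraries. It did not differ detectably at D3, where WT libraries had 33.9, 26.0 and 31.0 (log2FC = 0.60 ± 0.48, adjusted p = 0.26). It rose to 105.8, 72.2 and 84.3 at D5 (log2FC = 1.53 ± 0.43, adjusted p = 0.00294) and to 120.7, 180.2 and 286.0 at D7 (log2FC = 1.16 ± 0.41, adjusted p = 0.0233). The call from D5 to D7 was lost with the replicate number as a block (adjusted p = 0.056) and when D5 WT replicate 2 or 3 or D7 WT replicate 2 or 3 was left out. The log2FC was 0.78 without D7 WT replicate 3. In WT iPSC clones Rtl1 was 5.18, 12.9 and 7.42 and in WT ESCs 2.01, 4.05 and 0.869, at or near the limit of detection.

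Meg3, a long non-coding RNA that starts the maternal transcripts of the locus, was 2045, 2788 and 2321 in WT MEFs. It was 268.6, 238.0 and 224.8 at D3 (log2FC = -3.29 ± 0.66, adjusted p = 1.16e-06). Levels of 414, 733 and 582 followed at D5 and of 916, 1038 and 694 at D7. WT iPSC clones then had 3826, 11664 and 7586, and WT ESCs 7736, 6395 and 5553. The mean was 3.23 times the WT MEF mean in WT iPSCs and 2.75 times in WT ESCs, without overlap.

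Rian, the host of many small nucleolar RNAs, had the narrowest spread of the members in WT MEFs, with 6527, 6570.4 and 6421. It was 1309, 849 and 1084 at D3 (log2FC = -2.59 ± 0.67, adjusted p = 0.000221), 2436, 3298 and 3149 at D5, and 3106, 3280.5 and 2826 at D7. Mirg, which hosts microRNAs, was 130.4, 157.5 and 121.0 in WT MEFs and 58.7, 42.0 and 42.6 at D3, and this step did not pass the FDR (log2FC = -1.51 ± 0.77, adjusted p = 0.068) although the libraries did not overlap. WT iPSC clones had 491, 995 and 877 normalised counts of Mirg.

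From MEFs to D3, 4 of 6 members were called lower in WT cells and 0 were called higher, where 25.4% of all genes tested were lower DEGs (FDR < 0.05, log2FC > |1|) and 19.5% higher DEGs. Mirg and Rtl1 were the members not called, with an unadjusted p under 0.05 for Mirg, as for 72.4% of the genes in the table. The median log2FC of the members was -2.94, and that of all genes tested was -0.005. From D3 to D5, 2 of 6 were called higher and 0 lower, against 4.94% higher and 1.84% lower among all genes. From D5 to D7 the numbers were again 2 higher and 0 lower, against 4.74% and 1.07%.

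One library weighed on these tests. In the fit to all libraries the dispersion of a gene is shared by all groups, and KO ESC clone 1 stood far apart in Meg3, Rian and Mirg. When that clone was left out, the SE of Meg3 from MEFs to D3 went from 0.66 to 0.31 and that of Rian from 0.67 to 0.28, with the same log2FC. In this fit of 35 libraries, chosen after seeing the data, the fall of Mirg from MEFs to D3 was called (adjusted p = 0.00025), as were the rises from D3 to D5 of Meg3 (log2FC = 1.24 ± 0.31, adjusted p = 0.000577) and Rian (log2FC = 1.45 ± 0.28, adjusted p = 2.89e-06). The count from D3 to D5 was then 4 of 6. At D5, WT libraries lay above all WT D3 libraries in each of Meg3, Rian and Mirg. The share of all genes that did so was not computed. For this step 34.5% of the genes in the table had an unadjusted p under 0.05 by DESeq2.

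The non-coding RNAs also changed in proportion to each other. Per kb of exon, Rian was 2.34 to 3.85 times Meg3 in MEFs, 3.54 to 7.12 times at D3, 4.39 to 5.84 times at D5, 3.07 to 4.04 times at D7 and 1.91 to 2.44 times in iPSCs, over 6 libraries each. In the 5 ESC libraries other than KO clone 1 it was 1.75 to 2.56 times. Mirg per kb was 0.427 to 0.671 of Meg3 at D3 and 0.212 to 0.319 in iPSCs. The ranges at D3 and in iPSCs did not overlap for either ratio, and no test was run on the ratios.

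Zfp266 KO was compared with WT to ask whether loss of Zfp266, studied as a roadblock to reprogramming, changed the locus on the way to pluripotency. By DESeq2, 0 of 6 members were called in MEFs, at D3 and at D5, against 0.019%, 0.162% and 1.19% of all genes tested. At an unadjusted p under 0.05 the numbers were 0, 0 and 2, the same as by edgeR, which also called none. Of the genes in the table, 7.69%, 5.62% and 15.9% had such a p by DESeq2. At D7 1 of 6 members was called, Dlk1, against 8.37% of all genes. The plot of KO over WT log2FC shows the members at each stage.

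**Figure D2:**
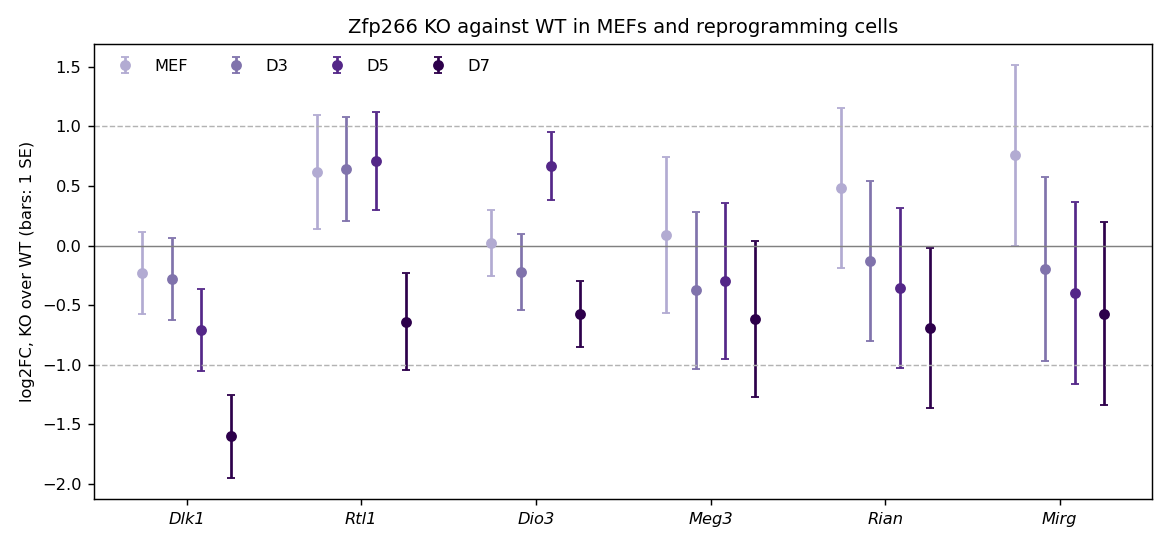
log2FC of KO over WT for each member in MEFs and at D3, D5 and D7 (DESeq2, all 36 libraries, n = 3 per group). Bars are 1 SE and dashed lines the fold threshold. Dlk1 moves from -0.23 in MEFs to -1.60 at D7, and the wide bars of Meg3, Rian and Mirg come from the fit that holds KO ESC clone 1.

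Dlk1 at D7 was 609, 274 and 481 in WT and 213.9, 91.0 and 144.3 in KO libraries. Each KO library was below each WT library, and the mean fell from 454 ± 169 to 149.8 ± 61.6 (log2FC = -1.60 ± 0.35, adjusted p = 5.41e-05). Cell-state markers differed between the same libraries. The sum of the 10 fibroblast markers at D7 was 40221 to 49993 in WT and 13451 to 27438 in KO, that of the 10 pluripotency markers was 8283 to 12811 in WT and 33067 to 41680 in KO, and no marker of either list was at 0. Their part in the levels of the members at D7 was not tested. The call of Dlk1 held under every alternative tried. At D5 KO libraries were also all below WT libraries (555, 439 and 576 against 1013, 744 and 807), but the test did not pass (log2FC = -0.71 ± 0.35, adjusted p = 0.242). The fibroblast sums at D5 were 40431 to 50412 in WT and 31787 to 35930 in KO. At D3 the groups overlapped, with 1175, 1003 and 1173 in KO. The KO effect at D7 minus that at D3 was -1.32 ± 0.49 on the log2 scale with an adjusted p of 0.053, just outside the threshold. It was called by edgeR (adjusted p = 0.045), in the fit of 35 libraries (adjusted p = 0.024), in the fit of the compared groups alone (adjusted p = 0.046) and when D7 WT replicate 2 or D7 KO replicate 1 was left out. With the replicate number as a block it was not called (adjusted p = 0.070). The same difference for Rtl1 was -1.28 ± 0.60 (adjusted p = 0.147), and it was called in the fit of the compared groups alone (adjusted p = 0.040). DESeq2 thus called 0 of 6 members for this difference, with 2 at an unadjusted p under 0.05, and edgeR called 1. Over all genes tested, 4.12% were called for this difference by DESeq2, and 21.9% of the genes in the table had an unadjusted p under 0.05.

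Meg3, Rian and Mirg had lower values in every KO library at D7 but did not pass the test. Meg3 was 612, 432 and 684 in KO libraries and 916, 1038 and 694 in WT (log2FC = -0.62 ± 0.65, adjusted p = 0.53). Rian was 1894, 1545 and 2273 in KO and 3106, 3280.5 and 2826 in WT (log2FC = -0.69 ± 0.67, adjusted p = 0.49). Mirg was 60.2, 57.8 and 67.2 in KO and 105.5, 94.6 and 75.1 in WT (log2FC = -0.57 ± 0.77, adjusted p = 0.64). With Dlk1, 4 of 6 members had all KO libraries below all WT libraries at D7, where 29.9% of genes with a mean of at least 10 did. In the fit of 35 libraries Rian passed the FDR (adjusted p = 0.0443) with a log2FC of -0.69 under the fold threshold, and Meg3 (adjusted p = 0.12) and Mirg (adjusted p = 0.29) did not pass. In the fit of the compared groups alone, which takes the spread from the D7 libraries, Meg3 (adjusted p = 0.00186) and Rian (adjusted p = 7.31e-08) passed the FDR, and neither passed the fold threshold.

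Rtl1 and Dio3 lay higher in KO at D5 and were not called. Rtl1 at D5 was 171.7, 134.3 and 123.3 in KO and 105.8, 72.2 and 84.3 in WT (log2FC = 0.71 ± 0.41, adjusted p = 0.37). Dio3 at D5 was 152.6, 225.6 and 215.8 in KO and 115.5, 145.5 and 112.4 in WT (log2FC = 0.67 ± 0.28, adjusted p = 0.15). Every KO library was above every WT library for both genes, as in 16.5% of genes with a mean of at least 10. Dlk1 and Mirg were lower in every KO library, as in 16.9% of these genes. In the fit of the compared groups alone, Rtl1 (adjusted p = 0.0113), Dio3 (adjusted p = 0.00609), Dlk1 (adjusted p = 2.06e-06) and Rian (adjusted p = 0.00518) passed the FDR at D5, all under the fold threshold. At D7 the groups overlapped in Rtl1 and Dio3, with log2FC values of -0.64 ± 0.41 for Rtl1 and -0.57 ± 0.28 for Dio3.

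MEF KO replicate 3 stood apart from the other 5 MEF libraries. It had 14593 normalised counts of Rian (6314 to 6570.4 in the others), 487 of Mirg (86.6 to 157.5), 3756 of Meg3 (1835 to 2788) and 51.9 of Rtl1 (13.8 to 29.6). It had less Dlk1, 13736 against 19241 to 21261, and less Dio3, 419.5 against 628 to 817. The sum of the 10 fibroblast markers was 572638 in this library and 401208 to 446990 in the other MEF libraries, and all 10 were detected in each. Of the 10, 8 were higher in it than in any other MEF library, while Thy1 (11899 against 18412 to 19291) and Twist2 (1715 against 2090 to 2334) were lower. The neural progenitor marker Nes was 1955 there and 8869 or higher in the other KO libraries. The part of these differences in the levels of the members was not tested. Without this library the KO over WT log2FC in MEFs went from 0.48 to -0.04 for Rian, from 0.76 to -0.42 for Mirg and from 0.09 to -0.31 for Meg3, and 0 members were called with or without it.

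In the pluripotent lines the 3 non-coding RNAs separated 1 library from the other 11. KO ESC clone 1 had 38.6 normalised counts of Meg3 from 43 reads, 62.8 of Rian from 70 reads and 0 of Mirg. The other 11 libraries had 2625 to 11664 of Meg3, 6768 to 22444 of Rian and 286 to 995 of Mirg. Against the WT ESC mean, the clone was 170-fold lower in Meg3 and 203-fold lower in Rian. With a floor of 3 reads in that library it was at least 257-fold lower in Mirg. These folds come from a single clone, with no replicate. In bulk RNA, fewer cells with the transcript and less transcript per cell cannot be told apart.

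**Figure D3:**
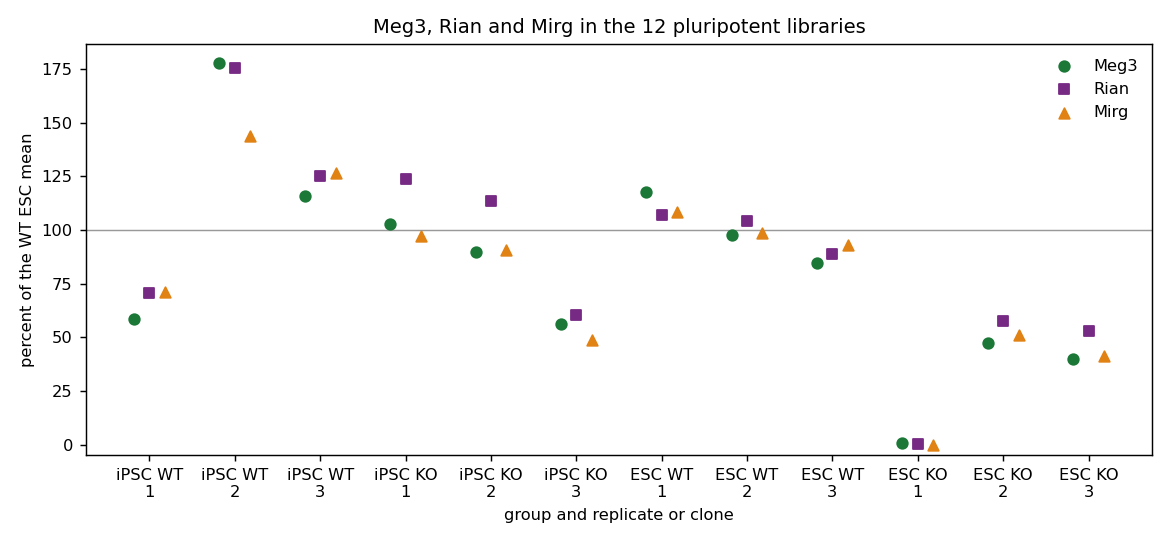
Levels of Meg3 (circles), Rian (squares) and Mirg (triangles) in the 12 pluripotent libraries as percent of the WT ESC mean, which is the grey line. KO ESC clone 1 is at 0.588%, 0.491% and 0%, KO ESC clones 2 and 3 are between 40.0% and 57.4%, and the iPSC clones are between 48.9% and 178%.

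The other KO ESC clones kept the non-coding RNAs at a lower level than WT ESCs. Meg3 was 3094 in clone 2 and 2625 in clone 3, which is 47.2% and 40.0% of the WT mean of 6561 ± 1101. Rian was 7333 and 6768, or 57.4% and 52.9% of 12786 ± 1244. Mirg was 353 and 286, or 51.0% and 41.3% of 693 ± 54.1. All WT ESC libraries lay above both clones for each RNA. WT values were 7736, 6395 and 5553 for Meg3, 13655, 13340.5 and 11361 for Rian and 751, 682 and 644 for Mirg. With clone 1 included, 4 of 6 members (these RNAs and Dlk1) had all KO ESC libraries below all WT ones. Of genes with a mean of at least 10, 15.7% did. The share for clones 2 and 3 alone was not computed.

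No iPSC clone lacked the non-coding RNAs. Meg3 was 6735, 5888 and 3680.1 in KO clones, against 3826, 11664 and 7586 in WT clones. Rian was 15843, 14498 and 7733 in KO clones and 9027, 22444 and 15993 in WT clones. Mirg was 672, 628 and 338 in KO clones and 491, 995 and 877 in WT clones. WT and KO clones overlapped for each RNA, and the lowest of the 6 clones in all 3 was KO clone 3. The highest was WT clone 2. WT clones of the same group spread more widely than WT ESC samples, with the highest 3.05 times the lowest for Meg3 in iPSCs and 1.39 times in ESCs. KO clone 1, which lay in the middle of the clones, had a summed level of 1273 for 6 primitive endoderm markers, with none at 0. The other iPSC clones had 131.8 to 169.3. This list is not specific, since MEF libraries had 4750 to 4845. The same clone had 3641 for 6 markers of primed epiblast and early mesoderm, where the other iPSC clones had 1154 to 1824. The part of such cells in the levels was not tested.

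The coding genes were low in all pluripotent libraries, including KO ESC clone 1. Dlk1 was 12.6 there, below the 18.2 to 96.4 of the other 11. Dio3 was 21.5, within their 8.07 to 36.5. Rtl1 was 9.87 from 11 reads, where the other ESC libraries had 0 to 4.05 and iPSC clones 0 to 12.9. The KO over WT ratio of Rtl1 means in ESCs was 156% with clone 1 and 19.4% without it, so that library alone set its direction. In iPSCs Rtl1 was 5.18, 12.9 and 7.42 in WT clones and 3.99, 2.60 and 0 in KO clones, counts of at most 15 reads.

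The order of the group means placed WT iPSCs, WT ESCs and KO iPSCs on top for Meg3, Rian and Mirg, and the libraries of neighbours in that order overlapped. WT and KO cells at D3 were lowest for these 3 RNAs, and overlapped as well. Dlk1 was ordered from WT MEFs (20756 ± 483) through KO MEFs (17679 ± 3439) to KO ESCs (29.4 ± 14.6). Rtl1 was highest in WT cells at D7 (195.7 ± 83.7), and overlapped there with KO cells at D5 (143.1 ± 25.4). Per kb of exon, Dlk1 was the highest member in WT MEFs with 3669 ± 85.3, followed by Rian with 357 ± 4.22 and Dio3 with 325 ± 21.9, and Rtl1 was the lowest with 3.23 ± 1.28. In WT ESCs the per-kb order was Rian (701 ± 68.2), Meg3 (363 ± 60.9) and Mirg (95.0 ± 7.41), above Dlk1 (9.73 ± 1.70), Dio3 (9.40 ± 2.72) and Rtl1 (0.363 ± 0.253).

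Along the locus, further non-coding genes were undetected in KO ESC clone 1. Of 7 other genes of the table inside the locus, 3 had a mean of at least 10 in some pluripotent group and 0 reads in this clone, the lincRNA Gm34081 between Dlk1 and Meg3, and Gm37899 and B830012L14Rik between Rian and Mirg. In the other 11 libraries they had 3.59 to 34.4, 3.89 to 31.4 and 3.89 to 47.4 normalised counts. Against the WT ESC means, 3 reads in the clone give at least 6.21-fold, 6.65-fold and 9.83-fold lower levels. The means of KO ESC clones 2 and 3 were only 7.63, 7.33 and 4.19, near the 2.69 that 3 reads give in clone 1. These 3 genes therefore separate clone 1 from the other KO clones only weakly. The share of similarly low genes with 0 reads in clone 1 was not computed. Gm3379, a processed pseudogene between Mirg and Dio3, was 10401 in the clone and 9346 to 12505 in the others. It is uncertain, since reads of its parent gene may be counted there.

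**Figure D4:**
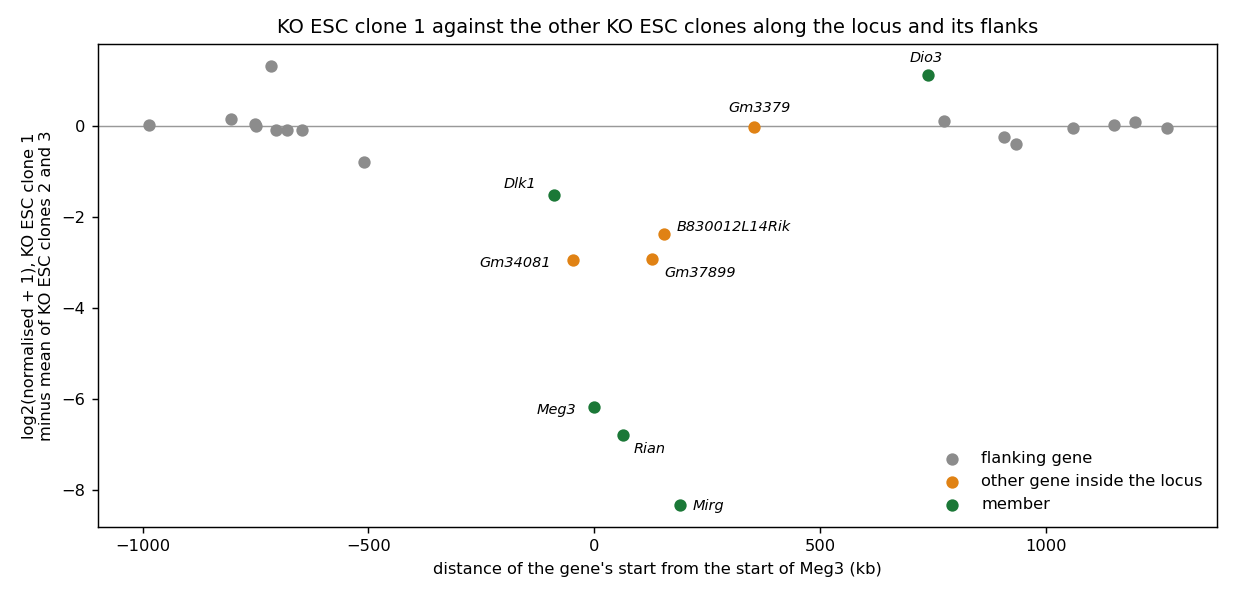
Difference in log2(normalised counts + 1) between KO ESC clone 1 and the mean of KO ESC clones 2 and 3 for genes with a mean of at least 10, against distance from the start of Meg3 in kb. Green points are members, orange points other genes inside the locus and grey points flanking genes. Meg3, Rian and Mirg lie at -6.17, -6.79 and -8.32, while the flanking genes lie between -0.80 and 1.32.

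Outside the locus the differences between the clone and the other KO clones were centred near 0. The 16 flanking genes with a mean of at least 10 had a median difference of -0.02 in log2(normalised counts + 1), with extremes of -0.80 in Begain and 1.32 in Slc25a29, a gene near 10 normalised counts. Over 710 further genes of chromosome 12 the median was 8.81e-05, and over 16704 genes of other chromosomes it was -0.00446. Median-ratio size factors hold such medians near 0 in any library, so they do not show how alike the clones were. With the locus included, clone 1 differed from KO ESC clones 2 and 3 by 13.7 and 17.1 times the counting variance. Clone 2 differed from clone 3 by 6.66 times. Among 12183 genes with a mean of at least 100 in the other 11 pluripotent libraries, 4 were below 5% of the lowest of these in KO ESC clone 1. They were Meg3, Rian, Mirg and Gm27000. The same count was 0 in 10 of the other libraries and 23 in WT iPSC clone 2, with no member among the 23.

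Imprinted genes elsewhere were set against the range of the other lines, which was wide for some, as in H19 (10.1 to 2412). The share of all genes within that range was not computed, so the count below does not show that imprinted genes were spared. Of 20 imprinted genes elsewhere in the genome, 17 lay in KO ESC clone 1 within the range of the other 11 pluripotent libraries, Cdkn1c and Sfmbt2 lay above it and Nnat below it with 0 against a lowest value of 0.897. In KO against WT, Igf2 (log2FC = -1.01), Peg10 (1.30) and Zdbf2 (1.96) were called at D7, 3 of 20 against 8.37% of all genes. Igf2 alone was called in KO iPSCs (2.01) and in KO ESCs (2.06), at a mean of 10.0 over the 12 pluripotent libraries.

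The 18 genes of a list of regulators of imprinting were followed beside the members. It held the DNA methyltransferases and their cofactors, the TET enzymes that oxidise methylated cytosine, and the zinc finger proteins Zfp57 and Zfp445 with Trim28 and Setdb1, which keep methylation at imprinted regions. In KO ESC clone 1, 17 of 18 were within the range of the other 11 pluripotent libraries, and Uhrf1 was above it (15190 against a highest of 15143). Here too the share over all genes was not computed, so no conclusion is drawn from this count. By DESeq2, 0 regulators were called in KO ESCs against 1.21% of all genes, with 6 at an unadjusted p under 0.05, and edgeR gave the same numbers. By DESeq2, 19.4% of the genes in the table had such a p. In KO iPSCs 1 was called, Dppa3 (log2FC = 2.23 ± 0.61, adjusted p = 0.00341), against 4.51% of all genes, and 0 were called in the fit of the compared groups alone.

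At D7, 6 of 18 regulators were called higher and 1 lower in KO, against 3.95% and 4.42% of all genes tested. Dnmt3l, the cofactor of the de novo methyltransferases, was 62.7 ± 55.4 in WT and 1033 ± 278 in KO (log2FC = 4.04 ± 0.46, adjusted p = 2.48e-16). Tet1 was 1083 ± 313 in WT and 5385 ± 491 in KO (log2FC = 2.31 ± 0.18, adjusted p = 7e-35). Dppa3, which protects imprints in the early embryo, was 23.3 ± 14.7 in WT and 163.3 ± 51.0 in KO (log2FC = 2.81 ± 0.63, adjusted p = 8.46e-05). Dnmt3b (log2FC = 1.86), Jarid2 (1.43) and Zfp57 (1.23) were also higher, and Aff3 was lower (-1.38). At D5 Tet1 alone was called (log2FC = 1.57 ± 0.20, adjusted p = 1.12e-12). Each of the 6 genes called higher at D7 had a higher mean in WT ESCs than in WT MEFs, as in Tet1 (14868 against 365). The pluripotency marker sums also differed, with 8283 to 12811 in WT and 33067 to 41680 in KO at D7. At D5 they were 1615 to 1953 in WT and 3637 to 5635 in KO. The part of this difference in cell state in the regulator levels was not tested. No regulator was called in MEFs or at D3, where 2 and 3 had an unadjusted p under 0.05 by DESeq2 and 1 and 2 by edgeR. Of the genes in the table, 7.69% and 5.62% had such a p by DESeq2.

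Of the 20 nearest genes on both sides of the locus, 0 were called in KO MEFs, at D3, in iPSCs and in ESCs by DESeq2 and by edgeR. DESeq2 gave an adjusted p to all 20 in MEFs and iPSCs but to 13 at D3 and 15 in ESCs, so the others could not be called there. By each tool, 0, 0, 10 and 3 had an unadjusted p under 0.05, where 7.69%, 5.62%, 27.6% and 19.4% of the genes in the table did by DESeq2. At D7 DESeq2 called 2 of the 20, against 8.37% of all genes tested. There 7 had an unadjusted p under 0.05, against 37.2% of the genes in the table. At D5 it called 1 of the 17 with an adjusted p, against 1.19%, and 6 had an unadjusted p under 0.05, against 15.9%. Begain, the counted gene nearest to Dlk1 outside the locus, was lower in KO at D7 (101.4 in WT and 31.4 in KO, log2FC = -1.70 ± 0.28, adjusted p = 4.28e-08). Mok was higher (97.8 in WT and 205.3 in KO, log2FC = 1.07 ± 0.25, adjusted p = 0.000238), and its call was lost without D7 KO replicate 1 or D7 WT replicate 3. At D5 Slc25a29 was called lower (9.53 in WT and 2.14 in KO, log2FC = -2.16 ± 0.69, adjusted p = 0.0311) by DESeq2 but not by edgeR, nor when D5 KO replicate 1 or 2 or D5 WT replicate 2 or 3 was left out. Of the 7 other genes inside the locus, DESeq2 gave an adjusted p to 5 in MEFs, 1 at D3, 2 at D5, 5 at D7, 5 in iPSCs and 1 in ESCs, and called none of these, so most could not be called at D3, at D5 and in ESCs. In ESCs 3 of the 7 had an unadjusted p under 0.05, against 19.4% of the genes in the table by DESeq2, and edgeR called 1. The locus was picked because single pluripotent clones differed in it. The iPSC and ESC counts inside it are therefore no independent evidence of a KO effect.

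The genes outside the locus whose levels were most like those of Meg3 over the 12 pluripotent libraries were ranked by Pearson's r of log2(normalised counts + 1) among 17414 genes. Gm27000, a lincRNA at chrX:88759471-88760312, had r = 0.998, and Gm24598, a small nucleolar RNA at chrX:64496584-64496657, had r = 0.983. Gm27000 was 6.28 in KO ESC clone 1 and 275 to 1283 in the other 11 libraries. Gm24598 was 0 in the clone and 18.5 to 88.7 in the others. Gm13332 (0.936), Coasy (0.900) and Tox3 (0.884) followed. Without KO ESC clone 1, Gm27000 was still ranked highest with r = 0.986 over 11 libraries, and it was the only one of the 5 genes that stayed among the 5 highest. Whether reads of Gm27000 or Gm24598 come from sequence shared with the locus was not tested, so both levels are uncertain.

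For Dlk1 the highest were D1Ertd622e (0.951), Sec14l1 (0.889), Hdac3 (0.886), BC005624 (0.875) and Rap2a (0.870), of which D1Ertd622e alone remained without the clone. Among the members, r of Meg3 with Rian was 0.997 over 12 libraries and 0.975 over the 11 without the clone, and r of Meg3 with Dlk1 was 0.733 and 0.708. The points share libraries and size factors, and these values are descriptions.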

How the data were processed

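The authors trimmed reads with Cutadapt, mapped them with STAR to GRCm38.p6 and counted reads per gene with Rsubread, and deposited raw counts for 21442 genes. They also deposited normalised signal, which equals those counts divided by DESeq2 median-ratio size factors. The annotation release, the strand setting and the filter on genes are not given in the sources used here. The deposited fold changes and p-values of the authors' own comparisons and their batch-corrected log matrix were not used.

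Groups came from the sample titles. The counts of all 36 libraries entered 1 model of the 12 groups with DESeq2 1.42.0 in R 4.3.3 (Wald test, adjusted p by Benjamini-Hochberg over all genes tested). DEGs had FDR < 0.05 and log2FC > |1|. In simulated D7 data of 21197 genes, DESeq2 recovered 193 of 200 changed genes with 16 false calls and edgeR 4.0.16 recovered 186 with 7. Gene positions came from GENCODE vM21, and sequences from RefSeq for GRCm38.p6. The 6 members, the gene lists and the tests were chosen with earlier results of these data known. Values were named for the members, for other genes inside the locus with a group mean of at least 10, for called genes among the 20 flanking genes and the regulators, and for the 5 genes most like Meg3 and Dlk1. Within-group pairs of libraries differed by 3.33 to 114 times the counting variance, so no library was a copy. Same-numbered WT and KO libraries deviated together at D3 (r = 0.101 to 0.456) and D7 (0.172 to 0.392) and less at D5 (lowest r = 0.0897), MEF, iPSC and ESC stages. Alternatives were edgeR, TMM factors, a filter of at least 10 counts in 3 libraries, only the groups compared, the FDR alone, a replicate block, leaving out each replicate and, added after seeing the data, leaving out KO ESC clone 1.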

Additional observations from a re-analysis of the deposited data

Results flagged for a closer look

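The KO and WT libraries of Rtl1 stood in opposite order at different stages. Rtl1 was called at none of MEF, D3, D5 and D7 (adjusted p = 0.99 at D3 and 0.37 at D5 by DESeq2), and the difference of these stages from iPSCs was not tested. The KO over WT ratio of means was 1.56 at D3 and 1.64 at D5, with every KO library above every WT library, and 0.259 in iPSCs, with every KO clone below every WT clone. Among genes with a mean of at least 10, all KO libraries were above in 7.78% at D3 and 16.5% at D5. All KO clones were below in 9.67% in iPSCs, where Rtl1 itself had means under 10 (8.51 in WT and 2.20 in KO). At D7 it was 0.642, with overlapping libraries. The iPSC values rest on at most 15 reads per library. Groups of 3 libraries were too small for a search for outlying samples, so KO ESC clone 1 and MEF KO replicate 3 are described by their values alone.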

How the results depend on the processing

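Of 612 recomputed member fold changes, 581 kept their direction and call, 20 changed only the call and 11 changed sign. All that changed sign were uncalled and did so when 1 library was left out. With a replicate left out, KO over WT log2FC in MEFs ranged from -0.15 to 0.27 for Dio3 (negative without WT replicate 1, KO replicate 1 or KO replicate 2), from -0.31 to 0.28 for Meg3 (negative without WT replicate 1 or KO replicate 3), from -0.42 to 1.15 for Mirg and from -0.0405 to 0.69 for Rian (both negative without KO replicate 3). It ranged from -0.28 to 0.0317 for Rian at D3 (positive without WT replicate 1), and the D7 minus D3 effect of Meg3 from -0.45 to 0.0315 (positive without D3 KO replicate 1). From D5 to D7 in WT, Mirg ranged from -0.16 to 0.0789 (positive without D7 replicate 3) and Rian from -0.0700 to 0.14 (negative without D5 replicate 1). The members called from D3 to D5 in WT were 2 and became 4 in the fit of 35 libraries and 4 with only the groups compared. In the latter fits a gene's spread comes from the compared libraries. From D5 to D7 they were 2 and became 1 with the replicate block and 1 to 2 when a replicate was left out. For the D7 minus D3 effect they were 0 and became 1 by edgeR, 1 in the fit of 35 libraries, 2 with only the groups compared and 0 to 1 when a replicate was left out. The replicate block changed no other call of a member. The KO mean of Meg3 in iPSCs was 70.6% of the WT mean (56.5 to 95.2% when a replicate was left out, highest without WT clone 2) and that of Dio3 178% (149.9 to 260.6%, highest without WT clone 3). In ESCs Meg3 went from 29.3% to 43.6%, Rian from 36.9% to 55.1% and Mirg from 30.8% to 46.2% without KO clone 1. Of 308 recomputed counts of called genes in the other lists, 28 changed by more than 1.5 times, or from or to 0. The causes of changes other than those in the library sets were not tested.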
